A study of Mus musculus with 48 samples.

Results

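The Kruppel-like factors are a family of zinc finger transcription factors, and 8 of its genes are described here of the 24062 in the count table: Klf1, Klf2, Klf3, Klf4, Klf6, Klf7, Klf10 and Klf13. They were taken by symbol from a list drawn up with earlier results of these data known. The data are RNA sequencing counts of 48 single cells of mouse fetal liver at embryonic day 14.5, all labelled BFU-E, the burst-forming unit of the erythroid line and its earliest committed progenitor. Per the labels, magnetic beads removed cells with the stem and early progenitor markers Sca-1 and CD34, the megakaryocyte marker CD41, the Fc receptors CD16/CD32, and CD3, B220, Gr-1, Mac-1 or Ter119 of mature blood lines, and c-Kit positive cells with the 10% lowest CD71 were then sorted. The labels give these cells no genotype, treatment, animal or litter, so the 48 cells count as 1 sample. No test between cells is made and no p-value is given. Intervals on shares of cells speak of counting error over these cells alone, and not of spread between animals. The reads carry no molecular identifiers, so copies of 1 molecule can be counted more than once.

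Kruppel-like factors carry 3 zinc fingers at the carboxyl end and bind CACCC boxes and related GC-rich sites, so that members can compete for one site. Klf1 is the erythroid activator of globin, heme and red cell membrane genes. Klf3 is a repressor that recruits CtBP and is itself a known target of Klf1. Klf2 is known from endothelium and resting T cells, Klf4 from pluripotent cells and monocytes, Klf7 from neurons, and Klf6 as a widely expressed gene induced by injury. Klf10 was found as a gene induced by TGF-beta, and Klf13 is a widely expressed regulator that can act on globin promoters. Mpo, the myeloperoxidase of neutrophil precursors, serves as the myeloid reference beside Klf1.

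The promoters of Klf1 and Klf3 are shown because these are the erythroid activator and its known target within the family. Each run of 300 bases is from RefSeq on GRCm38.p6 and reads 5′ to 3′ on the strand of the gene. It holds 250 bases before the RefSeq start of transcription and 50 from it on. GENCODE places the gene starts, 84901928 for Klf1 and 64803388 for Klf3, within those 250 bases. Klf1 lies at chr8:84901732-84902031 on the plus strand and Klf3 at chr5:64803271-64803570 on the plus strand. Capitals mark matches on either strand to CACCC, and to the GATA motif, searched as AGATAA or AGATAG or TGATAA or TGATAG.
Klf1: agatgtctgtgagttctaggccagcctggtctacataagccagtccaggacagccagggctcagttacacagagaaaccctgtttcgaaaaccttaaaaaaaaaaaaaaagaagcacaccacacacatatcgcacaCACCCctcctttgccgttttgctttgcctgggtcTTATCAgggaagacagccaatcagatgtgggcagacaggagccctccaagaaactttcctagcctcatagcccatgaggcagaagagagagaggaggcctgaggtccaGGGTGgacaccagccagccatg
Klf3: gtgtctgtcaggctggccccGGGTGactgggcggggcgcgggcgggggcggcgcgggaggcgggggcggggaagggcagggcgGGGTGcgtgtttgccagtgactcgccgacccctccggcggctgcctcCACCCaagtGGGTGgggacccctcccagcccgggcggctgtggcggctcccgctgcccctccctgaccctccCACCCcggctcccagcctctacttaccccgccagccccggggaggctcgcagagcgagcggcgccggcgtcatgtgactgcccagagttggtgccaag
The Klf1 window held 1 GATA match, which begins at -80 with the start counted as 0, and 2 CACCC matches at -114 and 28. The Klf3 window held 5 CACCC matches and 0 GATA matches. Among all 32851 promoters of this length, 29.8% held the GATA motif, 57.5% held CACCC and 14.9% held both. Promoters of 7 members were matched by symbol, all but that of Klf10, and CACCC occurred in 5 of them and GATA in 2, those of Klf1 and Klf2. A match is a stretch of letters and not a bound site.

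Total counts ran from 246007 to 3211186 per cell, and 1 read was worth 0.287 to 2.43 CPM (counts per 1e6 counts of a cell, with library sizes scaled by the trimmed mean of M values). Of the 48 cells, 2 had a summed C1qa, C1qb and C1qc of 9314 and 15715 CPM, and the other 46 at most 381 CPM, the next highest 6.86 CPM. These 2 cells are called macrophage-like, and correlations leave them out. All 8 erythroid progenitor markers were read in at least 10 cells, with a summed level of 2.83 to 6737 CPM in the 46 cells. The 9 neutrophil and monocyte markers summed to 5.95 to 81721 CPM, so myeloid transcripts were part of cells that carry the erythroid label. The summed level in the 46 cells ranged from 0 to 3160 CPM for 12 macrophage markers, 0 to 2588 CPM for 8 megakaryocyte markers and 0 to 2247 CPM for 5 mast cell and basophil markers, of which Fcer1a and Prss34 were listed at 0. It reached at most 442 CPM for 6 lymphoid markers (Rag1 among those at 0), 364 CPM for 6 endothelial and stromal markers (Col1a1 and Col3a1 at 0) and 24.8 CPM for 5 hepatoblast markers (Ttr at 0).

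The family was read unevenly. Klf13 was read in 48 of 48 cells and Klf6 in 46, Klf10 in 32 and Klf1 in 31, while Klf3 was read in 18, Klf4 in 12, Klf2 in 8 and Klf7 in 2. So 4 of the 8 members had a read in at least 24 cells. The same share over all genes was not counted, so this number has no background beside it. Of the 24062 genes, 9946 had no read in any cell. Each cell had reads of 2 to 7 members (median 4), and 1 to 5 members reached 10 CPM in it (median 3). The summed level of all 8 members ran from 11.4 to 2179 CPM per cell with a median of 644 CPM, and Klf13 and Klf6 together supplied 76.8% of that sum over all cells. Thinned to 246007 counts per cell, Klf13 was still read in 48 cells, Klf6 in 37, Klf10 in 24, Klf1 in 23, Klf3 in 14, Klf4 in 7, Klf2 in 5 and Klf7 in 1.

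**Figure D1:**
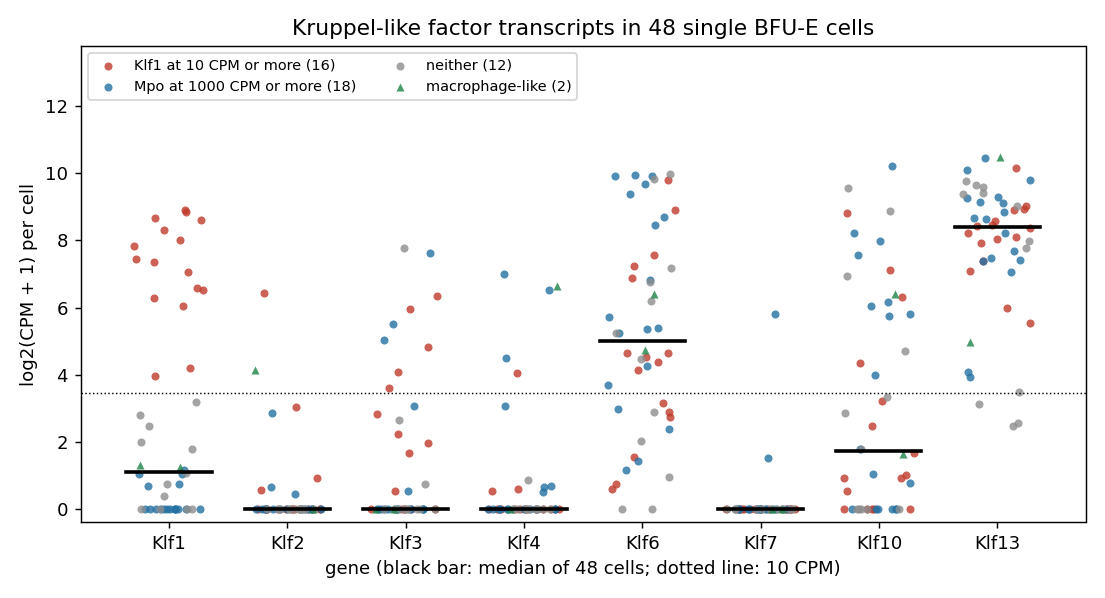
Level of each of the 8 members in each of 48 cells, as log2(CPM + 1), with the median as a black bar and 10 CPM as a dotted line; colours show cells with Klf1 at 10 CPM or more, with Mpo at 1000 CPM or more, with neither, and the macrophage-like cells. Klf13 lies above 10 CPM in 45 of 48 cells, while the medians of Klf2, Klf3, Klf4 and Klf7 are at 0.

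Compared per kilobase of exon, so that genes of different length can be set side by side, mean levels over 48 cells fell in the order Klf13 (55.3 ± 47.6 CPM per kb, SD), Klf6 (46.9 ± 76.2), Klf1 (46.4 ± 87.7), Klf10 (21.8 ± 52.5), Klf4 (2.50 ± 8.60), Klf3 (1.32 ± 3.89), Klf2 (1.32 ± 6.74) and Klf7 (0.145 ± 0.971). No 2 neighbours in this order differed by more than the SD of their difference over cells. Klf13 exceeded Klf6 per kb in 30 cells and was below it in 18. Medians were further apart: 44.7 CPM per kb for Klf13, 7.07 for Klf6, 0.751 for Klf1, 0.551 for Klf10 and 0 for the others. Klf13 was the highest member per kb in 19 cells, Klf6 in 14, Klf1 in 11, Klf10 in 3 and Klf4 in 1. Thus different cells led with different members. Lengths are unions of all annotated exons in GENCODE, and a cell may use shorter transcripts.

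Klf1, the erythroid activator (GRCm38 chromosome 8, 84901928 to 84905291, plus strand), was at 10 CPM or more in a minority of cells. The majority held at most 20 reads each. Its level had a lowest value of 0, a median of 1.15 CPM and a highest of 484 CPM, with a mean of 71.0 ± 134 CPM (SD, n = 48). The level was 10 CPM or more in 16 cells (33.3%, exact Clopper-Pearson interval 20.4 to 48.4%) and 100 CPM or more in 10. Among those 16 cells it ran from 14.5 to 484 CPM with a median of 167 CPM. Below 10 CPM there were 15 cells with a read and 17 cells with none. Those 15 had a median of 2 reads, at most 20 reads and a highest level of 8.10 CPM. Both macrophage-like cells had such a low level, with 1 and 2 reads (1.47 and 1.38 CPM). Whether the cells between these levels and 10 CPM expressed Klf1 was not decided. With up to 20 reads in a cell below it, 10 CPM is a working limit and not a clean break.

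Klf13 was the most even member (chromosome 7, 63886351 to 63938915, minus strand). It had a lowest value of 4.57 CPM, a median of 336 CPM and a highest of 1444 CPM, in a macrophage-like cell, with a mean of 417 ± 359 CPM (SD, n = 48). The level was at least 10 CPM in 45 cells and at least 100 CPM in 39. Its coefficient of variation was 0.861, the smallest of the 8, against 1.63 for Klf6 and 1.89 for Klf1. The 5 highest cells held 29.8% of its summed CPM, against 49.1% for Klf6 and 60.6% for Klf1.

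Klf6 (chromosome 13, 5861482 to 5870394, plus strand) was spread over the whole range from no read to the top. Its lowest value was 0, its median 31.03 CPM and its highest 1001 CPM, with a mean of 206 ± 334 CPM (SD, n = 48). In 33 cells it was at 10 CPM or more (68.8%, interval 53.8 to 81.3%), and in 17 at 100 CPM or more. Klf6 CPM had a Spearman rho of -0.37 with the total count of the cell over 46 cells, the largest such value among the 8 members in either direction, so high Klf6 was found more in cells of lower depth.

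Klf10 (chromosome 15, 38291463 to 38300706, minus strand) was high in a few cells. Its lowest value was 0, its median 2.30 CPM and its highest 1190 CPM, with a mean of 91.1 ± 219 CPM (SD, n = 48). Cells at 10 CPM or more numbered 18 and those at 100 CPM or more 9, and the 5 highest cells held 72.3% of its summed CPM. The cell in second place had 752 CPM and the third 471 CPM.

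Klf3 (chromosome 5, 64803388 to 64832901, plus strand) was lower and rarer than its activator. Its median was 0 and its highest value 218 CPM, followed by 197 and 79.5 CPM, with a mean of 14.9 ± 43.7 CPM (SD, n = 48). Only 9 cells had 10 CPM or more (18.8%, interval 8.95 to 32.6%). Both macrophage-like cells had no read of it. In GENCODE its exons share 404 bases with Gm20033 on the opposite strand, a gene that is not analysed here, and whether counting used strand is not given in the sources used here.

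Klf4, Klf2 and Klf7 were read in few cells. Klf4 (chromosome 4, 55527143 to 55532466, minus strand) reached 10 CPM in 5 cells, with a highest value of 127 CPM and a second of 99.6 CPM, the latter in a macrophage-like cell. Klf2 (chromosome 8, 72319033 to 72321656, plus strand) reached 10 CPM in 2 cells, at 84.9 CPM and, in the same macrophage-like cell, 16.6 CPM. That cell thus held 144 reads of Klf4 and 24 of Klf2, both known from monocytes and macrophages, while the other macrophage-like cell held 0 of each. Klf7 (chromosome 1, 64029447 to 64122282, minus strand) had reads in 2 cells, at 54.7 and 1.84 CPM. Its exons share 3196 bases with Gm26649 on the opposite strand. Klf2 and Klf7 did not pass the minimum of a read in 10 cells and a mean of 5 CPM, and 6 members did. Of all 24062 genes, 8482 passed it.

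Few other genes of the family were read in many cells. Of 18 further genes (Klf5 to Klf17 outside the 8, and Sp1 to Sp9), 6 passed the same minimum and 7 were listed at 0 in every cell, where a count of 0 in 48 cells still permits 6.25% of cells to have a read (3 counts over 48), or 7.40% by the exact Clopper-Pearson limit. Those at 0 were Klf14, Klf15, Klf17, Sp5, Sp6, Sp8 and Sp9. Sp1, the general GC-box activator, was read in 42 cells at 117 ± 199 CPM, Sp3 in 39 at 75.2 ± 157 CPM, and Sp2 in 30 at 16.6 ± 35.1 CPM (SD, n = 48). Klf16 was read in 32 cells at 70.6 ± 144 CPM, Sp4 in 16 and Klf11, the nearest relative of Klf10, in 11. Klf5, Klf8, Klf9, Klf12 and Sp7 had reads in 1 or 2 cells each. Per kb, Klf16 averaged 26.4 CPM, above the 21.8 of Klf10, and Sp3 and Sp1 15.2 and 14.1 CPM, each with an SD over cells larger than these gaps.

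**Figure D2:**
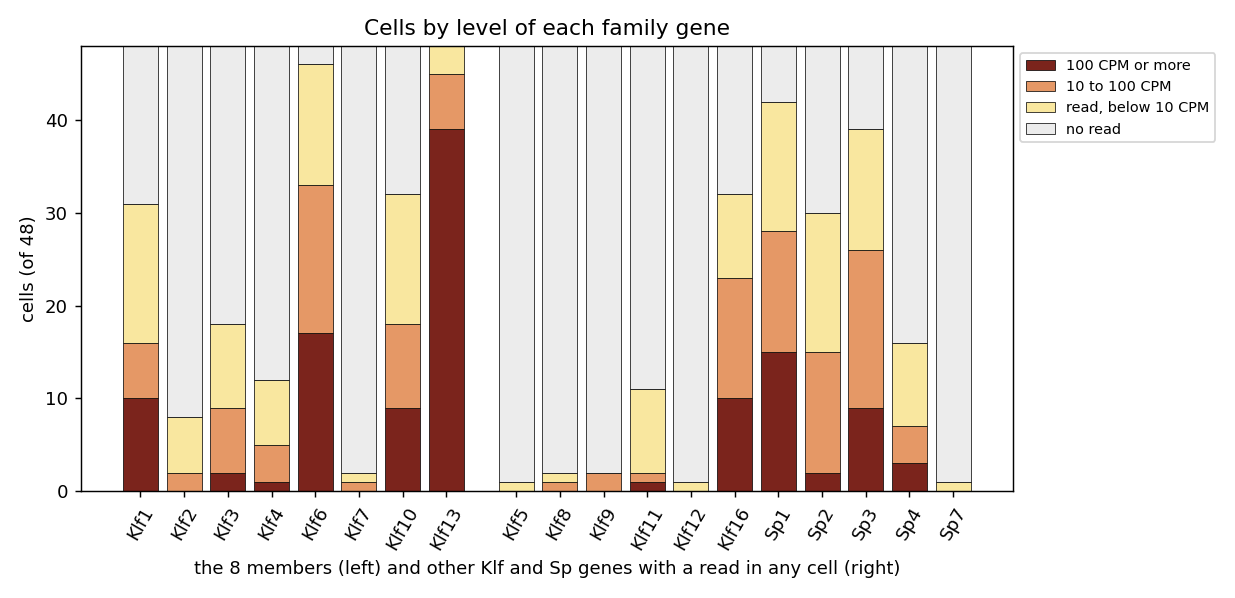
Number of the 48 cells at 100 CPM or more, at 10 to 100 CPM, with a read below 10 CPM and with no read, for the 8 members (left) and the other Klf and Sp genes with a read in any cell (right). Klf13 has 39 cells at 100 CPM or more, Klf6 has 17, and Klf1 and Klf16 have 10 each.

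The question of the series is which subpopulations BFU-E hold, and Klf1 at 10 CPM and Mpo at 1000 CPM marked separate cells. Of the 46 cells, 16 had Klf1 at 10 CPM or more, 18 had Mpo at 1000 CPM or more, 12 had neither and 0 had both. The highest Mpo level in the 16 Klf1 cells was 529 CPM, and the highest Klf1 level in the 18 Mpo cells was 1.22 CPM. With Mpo at 500 CPM, 1 cell had both, and with Mpo at 100 CPM, 4 did. At the same limit of 10 CPM for both genes, 11 of the 16 Klf1 cells had Mpo, and all 16 had a read of it. The division thus separates high Mpo from Klf1, not Mpo transcripts as such. Any read of Klf1 was found in 5 of the 18 Mpo cells. Scaled to the plain total count, 1 cell had both. Over the 46 cells, Klf1 and Mpo had a Spearman rho of -0.63 and a Pearson r of -0.65 on log2(CPM + 1). Such values describe cells that share library chemistry and vary in depth, and whose animals and chips the labels do not name.

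Gata1, the erythroid master regulator, was the closest of the erythroid factors to Klf1. All 16 Klf1 cells had Gata1 at 10 CPM or more, from 16.3 to 1722 CPM with a median of 536 CPM, and 12 cells had Gata1 at that level without Klf1. No cell had Klf1 at 10 CPM without Gata1. The rho of Klf1 with Gata1 was 0.69 over 46 cells. In the 12 cells with neither Klf1 nor high Mpo, Gata1 had a median of 268 CPM and reached 10 CPM in 10 cells, and in the 18 Mpo cells it had a median of 0.716 CPM and reached 10 CPM in 2.

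**Figure D3:**
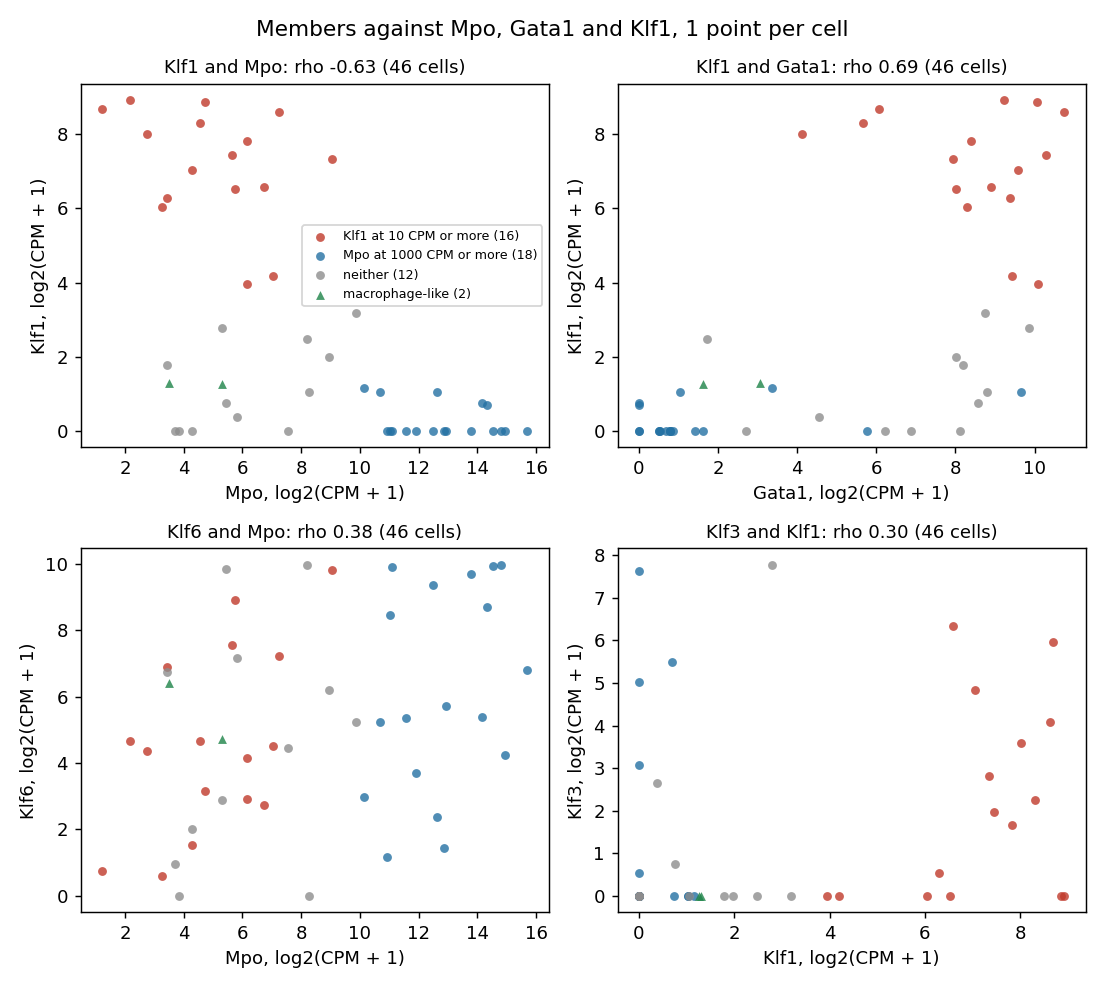
Levels as log2(CPM + 1), 1 point per cell, for Klf1 against Mpo, Klf1 against Gata1, Klf6 against Mpo and Klf3 against Klf1, with cells coloured by Klf1 and Mpo level. The Spearman rho over 46 cells is -0.63 for Klf1 and Mpo and 0.69 for Klf1 and Gata1, and the spread is wide for Klf6 and Mpo (0.38) and for Klf3 and Klf1 (0.30).

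These 3 sets of cells were drawn from their own transcript levels and are not replicates of a condition. Markers of other cells and depth differed between them. Megakaryocyte markers summed to a median of 513 CPM in the cells with neither (range 0 to 2588 CPM), 5.73 CPM in the Klf1 cells (0 to 545 CPM) and 89.7 CPM in the Mpo cells (0.673 to 2288 CPM). Neutrophil and monocyte markers, Mpo among them, summed to a median of 193, 76.0 and 8595 CPM in the same order. Erythroid markers, Klf1 and Gata1 among them, had medians of 2125, 2942 and 341 CPM. Both sums hold a gene that defined the sets, so part of these differences follows from the division. Median total counts were 1831812, 2147994 and 1712834. The part of these markers and of depth in the members' levels was not tested.

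Levels of the members that did not define the sets overlapped between them. Klf13 reached 10 CPM in 16 of 16 Klf1 cells, 18 of 18 Mpo cells and 9 of 12 cells with neither, with medians of 312, 405 and 386 CPM and ranges that overlap (45.8 to 1141, 14.2 to 1397 and 4.57 to 867 CPM). Klf6 reached 10 CPM in 10 of 16 Klf1 cells (62.5%, interval 35.4 to 84.8%), in 14 of 18 Mpo cells (77.8%, 52.4 to 93.6%) and in 7 of 12 with neither, with medians of 20.8, 46.1 and 28.7 CPM. Its ranges overlap almost fully, with highest values of 900, 992 and 1001 CPM. Klf10 reached 10 CPM in 4 of 16 Klf1 cells (25%, interval 7.27 to 52.4%), 9 of 18 Mpo cells (50%, 26.02 to 73.98%) and 4 of 12 with neither, and these intervals overlap.

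Klf3 was read in 10 of 16 Klf1 cells (62.5%, interval 35.4 to 84.8%), in 5 of 18 Mpo cells (27.8%, 9.70 to 53.5%) and in 3 of 12 with neither (25%, 5.49 to 57.2%). It reached 10 CPM in 5, 3 and 1 of them. The 2 highest levels of Klf3 were outside the Klf1 cells, at 218 CPM in a cell with neither and 197 CPM in a Mpo cell, and the highest level in a Klf1 cell was 79.5 CPM. Klf3 reads were thus more frequent where Klf1 was high, by a margin within the counting intervals. Its 2 highest levels lay outside the Klf1 cells at the limit of 10 CPM. Of those 2 cells, the one at 218 CPM had Klf1 at 5.90 CPM and would be a Klf1 cell at a limit of 5 CPM. The one at 197 CPM had Klf1 at 0. Klf4 was read in 7 of 18 Mpo cells, with 3 at 10 CPM or more and a highest value of 127 CPM, against 3 of 16 Klf1 cells with 1 at that level and 1 of 12 cells with neither. Klf2 was read in 4 Klf1 cells and 3 Mpo cells, and Klf7 in 2 Mpo cells.

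**Figure D4:**
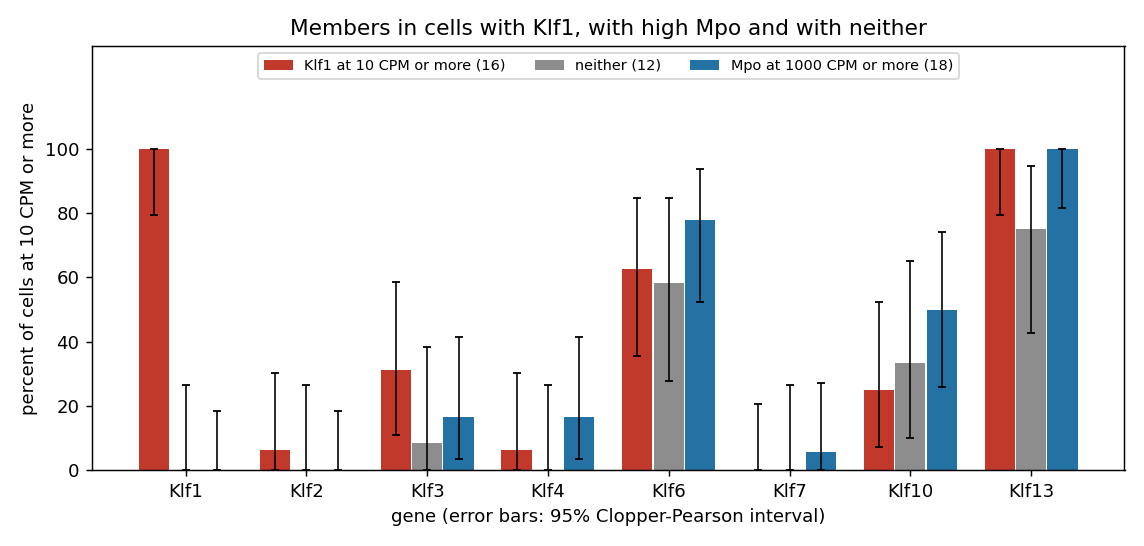
Percent of cells with each member at 10 CPM or more among the 16 cells with Klf1 at that level, the 12 with neither Klf1 nor high Mpo and the 18 with Mpo at 1000 CPM or more; bars start at 0 and error bars are 95% Clopper-Pearson intervals. The Klf1 bars follow from how the cells were divided; Klf13 stands at 100% in both the Klf1 and the Mpo cells, and the intervals of Klf3, Klf6 and Klf10 overlap between all 3 sets.

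Correlations of the members with Klf1 over the 46 cells were weak. With Klf1, 1 of the other 5 members that passed the minimum had a rho of 0.3 or more, namely Klf3 at 0.30, against 5.2% of the 8481 other genes. None had a rho of -0.3 or less, against 5.72% of genes, with Klf13 at -0.28, Klf4 at -0.24, Klf6 at -0.12 and Klf10 at -0.00382. The value of Klf3 lies at the limit: it was 0.3 or more in 5 of 12 alternatives and ran from 0.16 with Pearson's r and a pseudocount of 10 to 0.39 without the 2 cells farthest from the median of Klf1. Klf13 ran from -0.31 to -0.0247 and was past -0.3 in 3 of 12. Of these, DESeq2 size factors and the authors' log2 table are the same scaling and gave the same rho, -0.31. In counts this sparse a weak correlation is no finding. All member values were below the 0.69 of Gata1.

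With Mpo, 1 of 6 members had a rho of 0.3 or more, Klf6 at 0.38, against 7.58% of genes, and 1 had a rho of -0.3 or less, Klf1 itself, against 5.21%. Klf6 stayed between 0.36 and 0.43 in all 12 alternatives, including those given the number of genes read or the total count of the cell. Among the 12, DESeq2 size factors and the authors' log2 table are the same scaling and gave the same rho, 0.40. Of all genes, 4.21% had a rho with Mpo as high as that of Klf6. Klf4 followed at 0.27, then Klf10 at 0.0417 and Klf13 at 0.0114, and Klf3 had -0.14. At 10 CPM, all 17 cells with Klf10 also had Mpo and 4 of 31 cells with Klf6 lacked it. Since Mpo reached 10 CPM in 40 of the 46 cells, that limit separates little.

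**Figure D5:**
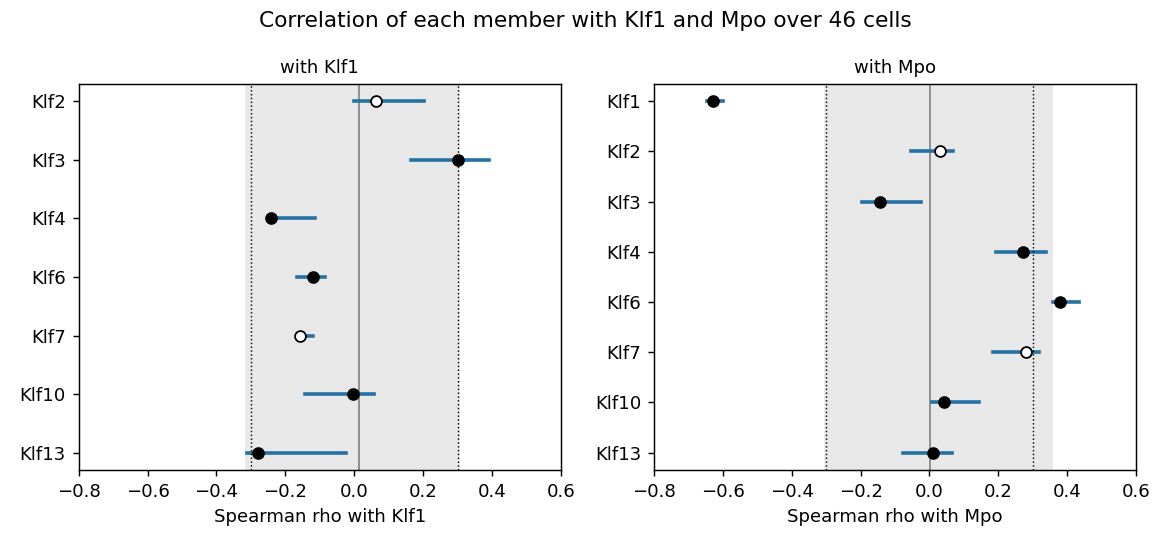
Spearman rho of each member with Klf1 (left) and with Mpo (right) over 46 cells; points are the values reported, open where the member missed the minimum level, blue lines the range over 12 alternatives, grey bands the 5th to 95th percentile of all genes, and dotted lines -0.3 and 0.3. Klf1 with Mpo at -0.63 lies far outside the band, Klf6 with Mpo at 0.38 just outside it, and Klf3 with Klf1 at 0.30 at its edge.

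Correlations of the members with each other were weak, which in counts this sparse does not show that their levels are unrelated. Over the 15 pairs of the 6 members that passed the minimum, rho ran from -0.28 (Klf1 and Klf13) to 0.30 (Klf1 and Klf3), with a median of -0.000742. The pair of Klf3 and Klf4 had 0.28. Klf10 had values between -0.0644 and 0.15 with the other 5. At 10 CPM, 5 cells held both Klf1 and Klf3, which is 31.2% of the 16 Klf1 cells and 55.6% of the 9 Klf3 cells. For Klf1 and Klf6 it was 10 cells, 62.5% of the Klf1 cells and 32.3% of the 31 Klf6 cells.

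Genes known to depend on Klf1 in red cells moved with it in part. The count table held 29 such genes, of which 20 passed the minimum, and 13 of the 20 had a rho of 0.3 or more with Klf1, against 5.2% of all genes, with a median of 0.36 against 0.0137 over all genes. Among them were Blvrb, a biliverdin reductase (0.69), the heme enzyme Cpox (0.62), the blood group protein gene Ermap (0.61), the transferrin receptor gene Tfr2 (0.59), the membrane anchor Ank1 (0.55) and Icam4 (0.35). Xpo7 had -0.30, the 1 gene at or below -0.3, named after its value was seen. Late genes of the same list were scarcely read. Alas2, which starts heme synthesis in red cells, was read in 2 cells, and 6 genes were listed at 0, namely Hbb-b1, Hbb-b2, Hba-a1, Slc4a1, Sptb and Bcam. Removal of globin reads is not described in the sources used here, and a listed 0 is not read as absence of globin. With Mpo, 11 of the 20 had -0.3 or less and 0 had 0.3 or more, against 5.21 and 7.58% of all genes.

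Of 11 erythroid factors set beside Klf1, 7 had a rho of 0.3 or more with it and 0 had -0.3 or less, with a median of 0.36. Besides Gata1 these were Zfpm1, the Gata1 cofactor Fog1 (0.51), Ldb1 (0.48), Tal1 (0.42), Nfe2 (0.37), Gfi1b (0.36) and Epor (0.33). Of 13 neutrophil and monocyte genes, 10 had -0.3 or less with Klf1 and 0 had 0.3 or more, against 5.72 and 5.2% of genes, while all 12 other than Mpo had 0.3 or more with Mpo. Examples with Klf1 and then Mpo are Prtn3 (-0.47 and 0.78), Ctsg (-0.45 and 0.75), Ms4a3 (-0.32 and 0.70), Cebpa, the granulocyte factor (-0.48 and 0.64), Elane (-0.35 and 0.62) and Lyz2 (-0.33 and 0.59). Co-regulators of the family, among them Ctbp1 (0.30, just under the limit) and Ctbp2 (-0.24), had 0 of 10 past 0.3 with Klf1 in either direction. The 6 other Klf and Sp genes that passed the minimum also had 0 of 6. Immediate early genes had 2 of 11 at -0.3 or less with Klf1, Zfp36 and Btg2 (both -0.36). TGF-beta receptor, Smad and early response genes had 1 of 11 at 0.3 or more, the type III receptor gene Tgfbr3 (0.45), and 1 at -0.3 or less, Tgfbr2 (-0.38). With Mpo, 7.58% of all genes were at 0.3 or more and 5.21% at -0.3 or less, and the numbers at these limits were 0 and 6 of 11 erythroid factors, 0 and 0 of 10 co-regulators, 0 and 1 of 6 other Klf and Sp genes (Sp4, -0.31), and 3 and 1 of 11 in the TGF-beta list (Id1, 0.50, Tgfbr2, 0.33, Tgfbr1, 0.30, and Tgfbr3, -0.73).

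Klf6 correlated with part of the immediate early and the myeloid genes, and about as much with marker sums of other cell types. Its rho over 46 cells was 0.35 with the summed neutrophil and monocyte markers, 0.31 with the lymphoid, 0.30 with the mast cell and basophil and 0.29 with the endothelial and stromal markers, and their part in the values below was not tested. Of 11 immediate early genes, which are induced quickly by many stimuli, 5 had a rho of 0.3 or more with Klf6, against 3.29% of all genes, with a median of 0.27 against -0.00796. They were Zfp36 (0.37), Fos (0.35), Fosb (0.33), Egr1 (0.32) and Jun (0.31). Of 13 neutrophil and monocyte genes 6 had 0.3 or more, from 0.31 to 0.39 (S100a8, Mpo, Ms4a3, Prtn3, Elane and Ctsg), and the median was 0.19. At -0.3 or less were 3.9% of all genes, 1 of 11 erythroid factors (Epor, -0.31) and 1 of 20 genes known to depend on Klf1 (Fech, -0.38). Of that last list 1 had 0.3 or more (Epb4.2, 0.36), and of 10 co-regulators 1 (Crebbp, 0.43). Immediate early genes also included 4 of 11 at 0.3 or more with Mpo, against 7.58% of all genes, Myc (0.48), Zfp36 (0.42), Jun (0.35) and Fos (0.34). Given the total count of the cell, the rho of Klf6 with Mpo was 0.39; for the other genes of these lists the part of depth was not tested. Genes named by their value with Klf6, Klf10 or Klf13 were chosen after the values were seen.

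The TGF-beta list holds the receptors and Smads as well as genes of the early response. None of its 11 genes had a rho past 0.3 in either direction with Klf10, which is near the background of 1.54% of genes at 0.3 or more and 2.48% at -0.3 or less, and the median was 0.000850. Skil, a Smad repressor, had 0.18 and Tgfbr3 -0.0573. Immediate early genes had 0 of 11 past 0.3 with Klf10 and a median of 0.14. Over all lists, the genes at -0.3 or less with Klf10 were Hdac1 (-0.38) and Nfe2 (-0.30). With Klf13, 3.73% of genes had 0.3 or more and 3.31% had -0.3 or less. Hdac1 (0.33) and E2f2 (0.33) were the list genes on the upper side, and Kel (-0.32) and Ier3 (-0.36) those on the lower.

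The genes most like Klf1 over the 46 cells, by Spearman rho of CPM among 8482 genes, were Gm15915 (0.70), Atp1b2 (0.70), Blvrb (0.69), Gata1 (0.69), Mfsd2b (0.66), Slc11a2 (0.66), Epdr1 (0.65) and Frat1 (0.64). Gm15915 is annotated as antisense RNA on chromosome 10, and Slc11a2 is an iron transporter. All 16 Klf1 cells also had Gm15915 at 10 CPM, a level it reached in 26 of the 46 cells, and its rho with Mpo was -0.79. For the other members the 3 most alike were Rpp40 (0.67), Mtap7d3 (0.58) and Mrpl22 (0.56) for Klf3, and Prex1 (0.58), Tmem229b (0.58) and Tk2 (0.52) for Klf4. They were Kdm7a (0.54), Def6 (0.54) and Cand2 (0.52) for Klf6, Rbm41 (0.51), Ddx51 (0.48) and Frmd7 (0.45) for Klf10, and Snrpa (0.57), Hmgn2 (0.53) and Eif1ax (0.52) for Klf13. All are top values picked among 8482 genes in sparse counts. Klf4 was read in 11 of the 46 cells. At 10 CPM it shared 1 cell with Prex1, 3 with Tmem229b and 1 with Tk2. Mtap7d3 reached 10 CPM in 4 cells. All 9 cells with Klf3 at 10 CPM had Rpp40, a subunit of ribonuclease P, at that level, which 19 of the 46 cells reached. Gm15915 and Rpp40 were picked for the highest rho in these same cells. Their shared cells with Klf1 and Klf3 therefore follow in part from that choice and are no separate support.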

How the data were processed

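Per the labels' protocols, cDNA was made from single cells with SMART-Seq chemistry on a Fluidigm C1 chip and libraries with Nextera XT. Per the submitters' processing notes, TopHat2 2.0.12, featureCounts 1.4.6 of Subread and the build mm10 were used. The authors deposited raw counts per gene and a table of log2 normalized counts, which equals log2 of count over DESeq size factor plus 1 (checked, largest gap 5.33e-14). No column name could be tied to a sample title.

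CPM used TMM library sizes (edgeR 4.0.16, R 4.3.3, factors 0.419 to 1.70). Correlations, in Python 3.11.15 with numpy 2.4.6, scipy 1.17.1 and pandas 2.3.3, used cells with a summed C1qa, C1qb and C1qc under 1000 CPM and genes with a read in 10 cells and a mean of 5 CPM. The step was tested on simulated data. Positions and exon lengths are from GENCODE M21 for GRCm38. Figures used matplotlib 3.10.9.

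Members and lists were chosen with earlier results of these data known. Lists were other Klf and Sp genes, genes known to depend on Klf1, co-regulators, erythroid factors, neutrophil and monocyte, immediate early genes, and TGF-beta receptors, Smads and response genes. Named genes were the members, Mpo, Gata1, at most 6 genes per list of largest absolute rho with Klf1 or Mpo, and the most alike genes (8 for Klf1, 3 for each other member that passed). Epb4.9 was not found by that symbol. Alternatives were DESeq2 1.42.0 size factors, plain CPM, the authors' log2 table, other sets of cells and limits, thinning, Pearson's r and partial correlations. DESeq2 size factors and the authors' log2 table hold the same scaling, so their Spearman rho are identical.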

Additional observations from a re-analysis of the deposited data

How the results depend on the processing

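Of 382 values recomputed, 353 stayed within the margins set and 29 moved: beyond 0.1 for a rho, the 95% binomial interval for a share of cells, 1 SD for a mean, and 1.5 times for a count of members. Part of the 353 could not move. Rescaling cannot change a share of cells with a read, and 1 SD exceeded the mean itself for every member but Klf13 (for Klf1, 71.0 ± 134 CPM). The authors' log2 table also repeats the Spearman rho of the DESeq2 size factors. The 353 is therefore no measure of stability. None of the rho past 0.3 changed sign. The number of members with a rho of 0.3 or more with Klf1 was 0 in place of 1 with DESeq2 size factors, plain CPM, the authors' log2 table, all 48 cells, without cells with a summed C1q of 100 CPM or more, and with Pearson's r at pseudocounts of 1 and 10. The number at -0.3 or less with Klf1 was 1 in place of 0 with DESeq2 size factors, the authors' log2 table and, an alternative chosen after seeing the data, rho given the total count. The number at 0.3 or more with Mpo was 2 in place of 1 without the 2 cells farthest from the median. Limits on the cells with both Klf1 and high Mpo were also tried after seeing the data: in place of 0, 5 cells had both with any read of Klf1, 1 with Mpo at 500 CPM, 4 with Mpo at 100 CPM and 1 with plain CPM. For all of these the cause was not tested. Thinned to the lowest total count, the share of cells with a read was 47.9% for Klf1, 77.1% for Klf6 and 50% for Klf10, which lies below the interval of each at full depth. The other members stayed within theirs. Of these, Klf13 stayed at 100%, while Klf3 fell from 37.5 to 29.2%, Klf4 from 25 to 14.6%, Klf2 from 16.7 to 10.4% and Klf7 from 4.17 to 2.08%. Thinning can only keep or lower a share of cells with a read, so the direction was fixed in advance. An absent read does not show an absent transcript. No paired analysis was possible because the cells form 1 group.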
